A study of Homo sapiens with 24 samples.

Results

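The response of 2 human cell lines to fast rotation was compared gene by gene. The response of a line is its level in capillary containers rotated about a pair of axes (DRCC) at 30 rpm less its level in flat culture (2D), and the line difference is the response of PANC-1 less the response of HEK293T, both on the log2(FPKM + 1) scale. FPKM count the fragments of a gene relative to its length and to the fragment total of the library. A gene was a member if its mean FPKM was at least 1 in at least 1 of the 2 formats in each line, so that both lines express it. This held for 10498 of 26450 genes in the deposited table. A further 859 genes passed in PANC-1 and not in HEK293T, 1712 passed in HEK293T and not in PANC-1, and 13381 passed in neither. Of the members, 9356 passed in both formats of both lines and 1142 through a single format in at least 1 line, so that a gene of the second kind could differ between formats by the way it was chosen. The counts and medians of lists below include genes of the second kind. At the edge of the rule, MDP1, EFEMP1 and ZNF189 lay just inside, with 1.00 FPKM in the deciding line, and CNPY2-AS1, ZDHHC14 and PPP4R3B-DT just outside, with 1.00 FPKM after rounding.

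The study holds 24 libraries in 8 groups of 3. The groups used for the line difference are PANC-1 cells in DRCC at 30 rpm, PANC-1 cells in 2D, HEK293T cells in DRCC at 30 rpm and HEK293T cells in 2D, 12 libraries in all. PANC-1 is an established epithelial line, derived from a carcinoma of the pancreatic duct. HEK293T is an epithelial line from embryonic kidney that carries the SV40 large T antigen, a viral protein that binds p53 and RB. No treatment or engineered allele is named for either line, and times in culture are not given in the sources used here. The other 12 libraries, from DRCC at 1 rpm and from AggreWell microwells, in which cells settle into aggregates without rotation, enter the estimate of the spread and a comparison at the end. The labels do not say whether the 3 libraries of a group came from separate cultures. The p-values therefore cover the spread among these libraries alone, and that spread may be technical.

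The 12 libraries held 32555333 to 39556154 fragments, and libraries of the same group correlated across genes at 0.997 or above. KRT7, KRT19 and TM4SF1, markers of PANC-1, were at or near 0 in HEK293T, and the 16 PANC-1 markers summed to 5269 to 5764 FPKM in PANC-1 at 30 rpm, 5570 to 5909 FPKM in PANC-1 in 2D, 324 to 339 FPKM in HEK293T at 30 rpm and 378 to 386 FPKM in HEK293T in 2D. The 15 HEK293T markers separated the lines little as a sum, with 104 to 106 FPKM in PANC-1 at 30 rpm, 98.8 to 104 FPKM in PANC-1 in 2D, 134 to 135 FPKM in HEK293T at 30 rpm and 129 to 134 FPKM in HEK293T in 2D. Of these 15, NEFL, INA, SALL1 and HOXA9 were at or near 0 in both formats of PANC-1, and 7 averaged at least 1 FPKM there, against 11 in HEK293T at 30 rpm and 10 in HEK293T in 2D. Mitochondrially encoded genes took 1.57 to 1.62% of fragments in the 30 rpm libraries of PANC-1 against 4.10 to 4.68% in its 2D libraries, and 4.09 to 4.26% in HEK293T at 30 rpm against 4.68 to 4.85% in HEK293T in 2D. The part of this difference in the results below was not tested beyond a setting that leaves these genes out and rescales the rest.

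Some background helps to read the genes below. Dividing cells switch on genes for copying DNA in S phase and another set for chromosome segregation in mitosis, and CDK inhibitors restrain both. Immediate early genes such as FOS, EGR1 and NR4A1 encode short-lived transcription factors that answer growth factors, stress and mechanical force without new protein synthesis. The transcription co-activators YAP and TAZ are active in spread, adherent cells and drive CCN1, CCN2 and ANKRD1, while SREBP factors drive the genes of sterol and fatty acid synthesis when membranes run short of cholesterol. Chaperones of the heat shock and unfolded protein responses are made when proteins misfold in the cytosol or the endoplasmic reticulum (ER).

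Most genes were called for a difference between the lines in the size or the direction of their response to 30 rpm. In a limma fit over the 24 libraries, with Benjamini-Hochberg adjustment over 10498 genes and a threshold of 0.05, 8555 genes (81.5%) were called for the line difference: 4689 (44.7%) were higher in PANC-1 than in HEK293T in their response and 3866 (36.8%) were lower. The difference was at least 2-fold, that is 1 on the log2 scale, for 912 genes (8.69%) in the higher direction and 801 (7.63%) in the lower. The groups also separated library by library: for 7804 genes (74.3%) the 9 differences between a 30 rpm and a 2D library of PANC-1 did not overlap the 9 of HEK293T, with PANC-1 higher for 4305 (41.0%) and lower for 3499 (33.3%). With so many calls, being called says little about a gene, and sizes are given throughout. The median line difference over all members was 0.07. When mitochondrially encoded genes were left out and each library was scaled to a common sum of FPKM over the rest, that median was -0.11. The split became 3584 higher and 4934 lower, so a list or gene with a line difference near 0 has no settled direction. Wherever this setting is named below, it both leaves these genes out and rescales the libraries. Its effect is therefore not that of mitochondrial RNA alone, and its parts were not separated. The median over all members was 0.02 with quantile normalization and 0.02 with the trend with GC content and length removed. These shares and medians are the background of every list below, and where a setting moved a list's median to a large degree its value is given beside it.

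Within each line, 86.4% of genes were called in PANC-1 and 87.3% in HEK293T: 5680 genes (54.1%) rose and 3391 (32.3%) fell in PANC-1 at 30 rpm, and 5166 (49.2%) rose and 4003 (38.1%) fell in HEK293T. These splits depend on the scale: with median-ratio scaling they were 4241 risen and 4835 fallen in PANC-1 and 4170 and 4957 in HEK293T, and with quantile normalization 4225 and 4588 in PANC-1 and 4079 and 4874 in HEK293T. With mitochondrially encoded genes left out, 6089 rose and 3061 fell in HEK293T. Across genes, which are not independent replicates, the responses of the lines correlated at 0.444 (Pearson) and 0.451 (Spearman). There were 3619 genes called higher in both lines, of which 2671 still differed in size between the lines, and 2052 called lower in both, of which 1515 differed. In opposite directions, 1375 genes (13.1%) rose in PANC-1 and fell in HEK293T, and 949 (9.04%) fell in PANC-1 and rose in HEK293T. Large opposite changes were rare. Of 455 genes called and changed at least 2-fold in both lines, 364 rose in both, 70 fell in both, 9 rose in PANC-1 and fell in HEK293T and 12 did the reverse.

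**Figure D1:**
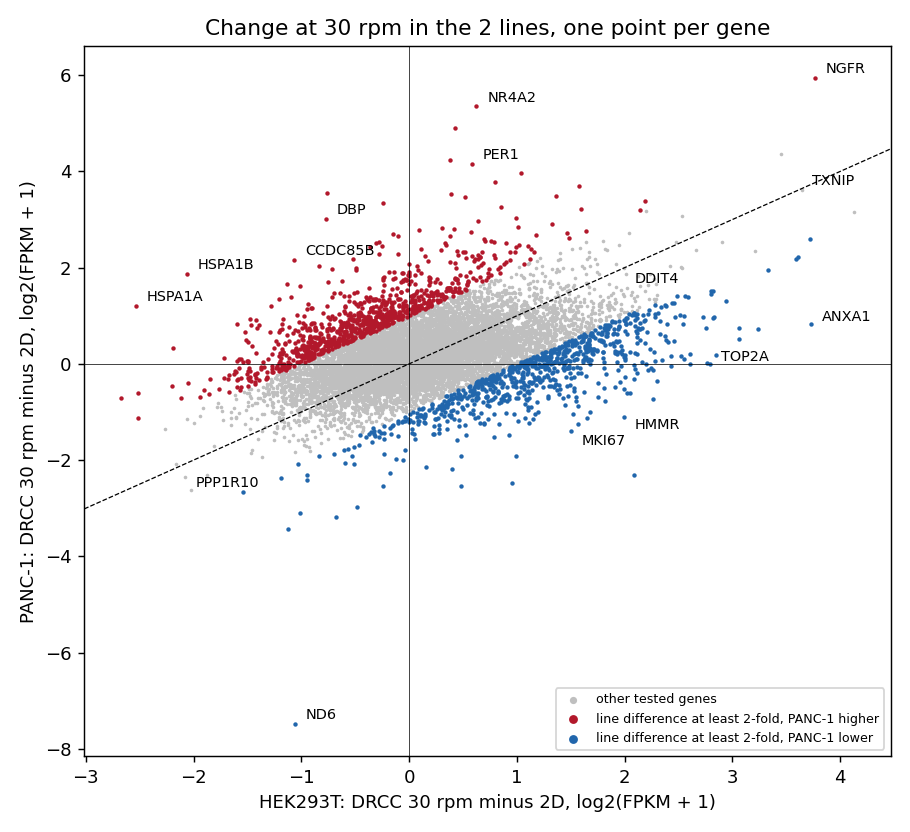
Each point is 1 of 10498 genes, with its change at 30 rpm against 2D on the log2(FPKM + 1) scale in PANC-1 (vertical axis) and in HEK293T (horizontal axis). The dashed line marks equal change, red and blue points differ between the lines by at least 2-fold, and HSPA1A and HSPA1B lie far to the upper left while HMMR and MKI67 lie to the lower right.

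Among genes of at least 5 FPKM in each line, HSPA1B, DBP, HSPA1A, PER1 and CCDC85B had the largest line differences in the higher direction. HSPA1B, an inducible HSP70 chaperone, had 110.5, 109 and 115 FPKM in PANC-1 at 30 rpm against 30.9, 27.9 and 30.1 FPKM in PANC-1 in 2D, and 112, 106 and 109.7 FPKM in HEK293T at 30 rpm against 469, 456 and 453 FPKM in HEK293T in 2D. The lines moved towards each other from opposite sides and stood at like levels at 30 rpm, with no overlap between formats in either line. Its line difference was 3.94 ± 0.053 (SE; adjusted p = 1.79e-23), made of 1.88 in PANC-1 and -2.06 in HEK293T. HSPA1A, its neighbour with a nearly identical coding sequence, had 106, 103 and 109.5 FPKM in PANC-1 at 30 rpm against 44, 46.3 and 46.1 FPKM in 2D, and 5.61, 5.55 and 3.58 FPKM in HEK293T at 30 rpm against 36.5, 35.1 and 27.4 FPKM in 2D. The direction was the same as for HSPA1B, with a line difference of 3.74 ± 0.16 (adjusted p = 2.14e-15). Reads of the 2 copies may have been divided or dropped in counting, so their separate values are uncertain.

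DBP, a clock output transcription factor, had 22.1, 20.7 and 20.5 FPKM in PANC-1 at 30 rpm against 1.67, 1.94 and 1.6 FPKM in 2D, and 4.69, 4.29 and 4.67 FPKM in HEK293T at 30 rpm against 8.91, 8.46 and 8.04 FPKM in 2D. It rose in PANC-1 and fell in HEK293T, and its line difference was 3.79 ± 0.08 (adjusted p = 1.48e-20). PER1, a clock repressor that also responds early to stimuli, had 85.3, 85.7 and 85 FPKM in PANC-1 at 30 rpm against 3.97, 3.39 and 4.15 FPKM in 2D, and 22.3, 23.6 and 23.6 FPKM in HEK293T at 30 rpm against 15.4, 14.6 and 15.4 FPKM in 2D. PER1 rose in both lines, by 4.16 in PANC-1 and 0.58 in HEK293T, with a line difference of 3.58 ± 0.067 (adjusted p = 2.44e-21).

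CCDC85B had 297, 284 and 292 FPKM in PANC-1 at 30 rpm against 61.5, 67.5 and 64.5 FPKM in 2D, and 49.2, 46.9 and 47.6 FPKM in HEK293T at 30 rpm against 102, 99.3 and 103 FPKM in 2D. It rose in PANC-1 and fell in HEK293T (line difference 3.22 ± 0.05, adjusted p = 1.52e-22). Also large were the line differences of IER5L (2.88 ± 0.071, adjusted p = 2.07e-19) and JUNB, a subunit of the AP-1 factor (2.82 ± 0.055, adjusted p = 4.49e-21). IER5L and JUNB rose in PANC-1 and fell in HEK293T. The GC content of the longest annotated transcript of these 7 genes ran from 57.8 to 67.7%.

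Among the 8 smallest line differences, ND6 stood apart. ND6, the mitochondrially encoded complex I subunit that is transcribed from the opposite strand to the other 12, had 2.63, 1.98 and 2.65 FPKM in PANC-1 at 30 rpm against 707, 567 and 564 FPKM in 2D, and 118, 112 and 105 FPKM in HEK293T at 30 rpm against 226, 254 and 220.4 FPKM in 2D. It nearly vanished in PANC-1 at 30 rpm and fell by a smaller amount in HEK293T, and the line difference was -6.43 ± 0.13 (adjusted p = 9.22e-21). The sources used here do not say whether the libraries mark strand, so ND6 reads and reads from the transcripts opposite to it cannot be told apart. In bulk RNA, fewer cells of a kind and less RNA per cell cannot be told apart either, for this gene or any other.

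HMMR, a spindle and hyaluronan binding protein of dividing cells, had 13.3, 12.3 and 12.2 FPKM in PANC-1 at 30 rpm against 27.6, 28.2 and 29.2 FPKM in 2D, and 31.7, 32.2 and 31.5 FPKM in HEK293T at 30 rpm against 6.75, 8.38 and 6.63 FPKM in 2D. It fell in PANC-1 and rose in HEK293T, with a line difference of -3.11 ± 0.089 (adjusted p = 2.29e-18). ATAD2, a bromodomain ATPase of chromatin, showed the same pattern, at 17.9, 18.7 and 18.2 FPKM in PANC-1 at 30 rpm against 30.9, 30.3 and 31.9 FPKM in 2D, and 25.9, 25.8 and 25.1 FPKM in HEK293T at 30 rpm against 4.43, 4.81 and 4.4 FPKM in 2D (line difference -2.99 ± 0.05, adjusted p = 5.10e-22). ANXA1, a membrane-binding annexin and 1 of the 16 PANC-1 markers, had 155, 155 and 150.3 FPKM in PANC-1 at 30 rpm against 83.6, 84.9 and 87.6 FPKM in 2D, and 31.1, 28.9 and 33.2 FPKM in HEK293T at 30 rpm against 1.59, 1 and 1.71 FPKM in 2D. ANXA1 rose in both lines, and its smaller rise of 0.84 in PANC-1 started from a level far above that of HEK293T, where it rose by 3.73 (line difference -2.89 ± 0.099, adjusted p = 5.67e-17). The PANC-1 markers as a sum were lower in HEK293T at 30 rpm than in 2D, so ANXA1 did not move with them. CCN2, MKI67, ERCC6L and TOP2A, the other 4 of the 8, are described with their groups below. The GC content of the 8 ran from 36.7 to 51.5%.

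**Figure D2:**
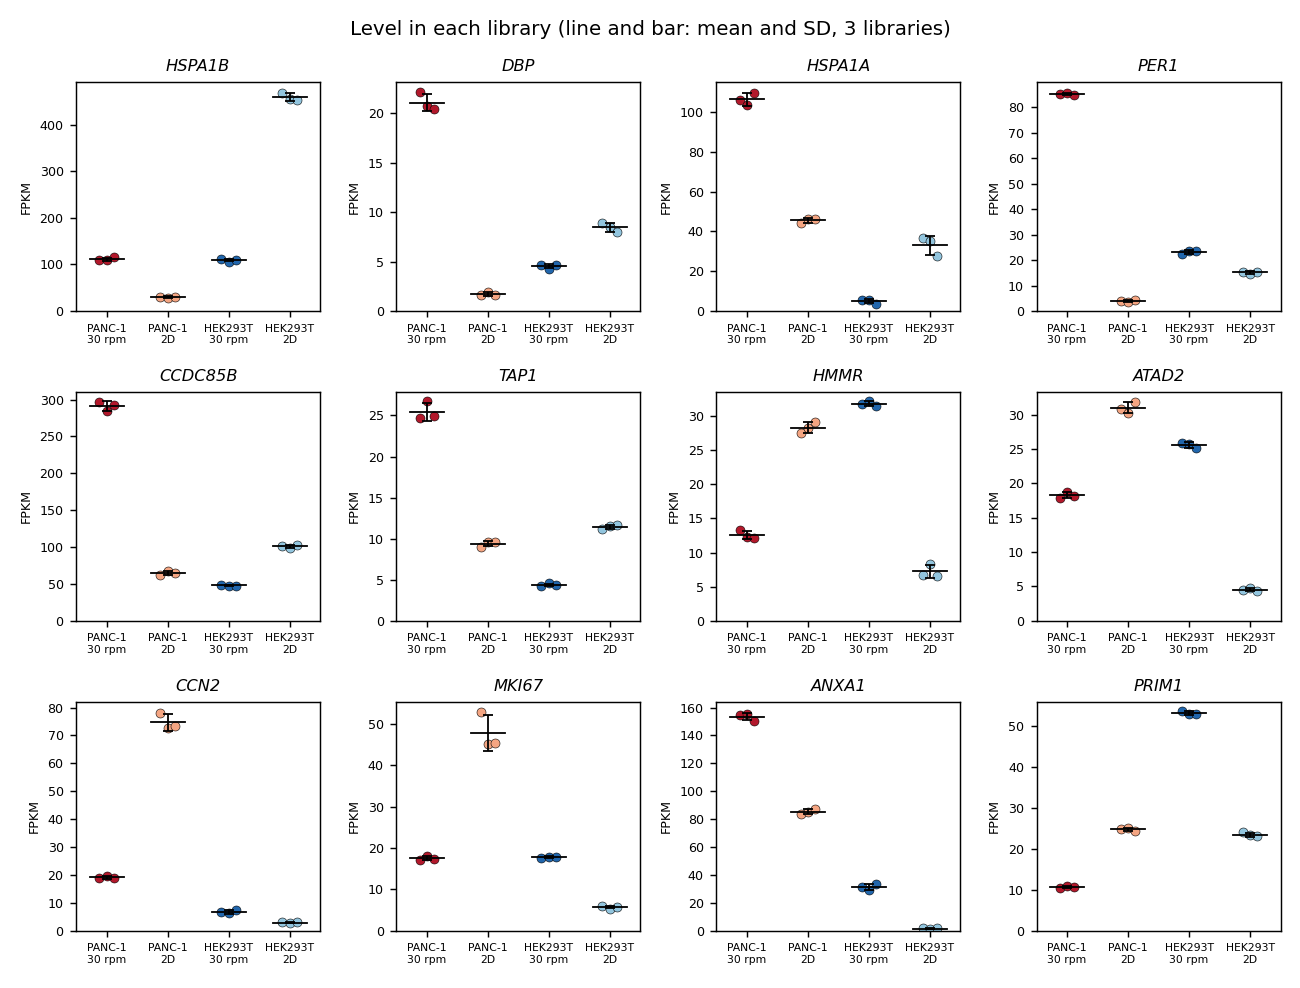
FPKM in each library for 12 genes with large line differences. Points are libraries, horizontal lines are means and bars are SD (n = 3 each). In HSPA1B, DBP, HSPA1A, CCDC85B and TAP1 the PANC-1 pair rises at 30 rpm and the HEK293T pair falls, in HMMR, ATAD2, CCN2, MKI67 and PRIM1 the reverse is seen, and PER1 and ANXA1 rise in both lines.

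Most genes of DNA replication and of mitosis were lower for the line difference. Of 36 DNA replication genes, all tested, 36 were lower for the line difference, where 36.8% of all genes were, with a median of -1.08 and a range from -2.48 for FEN1 to -0.35 for LIG1. In PANC-1, 34 of the 36 fell and none rose (32.3% and 54.1% of all genes), with a median change of -1.31. In HEK293T 15 rose and 20 fell (49.2% and 38.1% of all genes), with a median of -0.19. FEN1, the flap nuclease that trims Okazaki fragments, had 8.38, 9.26 and 7.76 FPKM in PANC-1 at 30 rpm against 71.7, 72.3 and 74.5 FPKM in 2D, and 71.3, 69.5 and 69.5 FPKM in HEK293T at 30 rpm against 99.7, 96.7 and 98.7 FPKM in 2D. Its fall was deep in PANC-1 and shallow in HEK293T (line difference -2.48 ± 0.07, adjusted p = 1.90e-18).

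PRIM1, the catalytic subunit of DNA primase, moved in opposite directions, with 10.6, 10.9 and 10.7 FPKM in PANC-1 at 30 rpm against 25, 25.1 and 24.4 FPKM in 2D, and 53.8, 53 and 53 FPKM in HEK293T at 30 rpm against 24.1, 23.4 and 23.1 FPKM in 2D (line difference -2.28 ± 0.047, adjusted p = 1.16e-20). MCM10, which activates the replicative helicase, and CDC6, which loads it, did the same, with line differences of -2.41 ± 0.051 (adjusted p = 1.78e-20) and -2.01 ± 0.051 (adjusted p = 3.15e-19). EXO1, an exonuclease of mismatch repair and recombination, had 4.69, 5.54 and 5.27 FPKM in PANC-1 at 30 rpm against 12.7, 12.6 and 12.1 FPKM in 2D, and 62.4, 61.7 and 60.8 FPKM in HEK293T at 30 rpm against 19.1, 18.4 and 19.3 FPKM in 2D. XRCC2, a protein of homologous recombination, had 1.94, 2.24 and 1.73 FPKM in PANC-1 at 30 rpm against 5.61, 5.48 and 5.38 FPKM in 2D, and 39.8, 39.8 and 41.3 FPKM in HEK293T at 30 rpm against 17.2, 20.6 and 18.2 FPKM in 2D. Both repair genes fell in PANC-1 and rose in HEK293T without overlap between formats, with line differences of -2.78 ± 0.059 (adjusted p = 1.61e-20) and -2.20 ± 0.086 (adjusted p = 4.96e-16).

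Of 31 mitosis genes, all tested, 29 were lower for the line difference, 1 was higher and 1 was not called. Over all genes 36.8% were lower and 44.7% higher. The list's median line difference was -1.19. The median change was -0.77 in PANC-1, where 24 fell and 5 rose (32.3% and 54.1% of all genes). In HEK293T it was 0.64, and 16 rose and 11 fell (49.2% and 38.1% of all genes). Of the 31, 10 fell in PANC-1 and rose in HEK293T (9.04% of all genes did). MKI67, the proliferation marker Ki-67, had 17.2, 18.1 and 17.4 FPKM in PANC-1 at 30 rpm against 52.9, 45.1 and 45.5 FPKM in 2D, and 17.6, 17.9 and 17.9 FPKM in HEK293T at 30 rpm against 5.89, 5.34 and 5.67 FPKM in 2D. The lines stood at like levels at 30 rpm, having come from opposite sides (line difference -2.89 ± 0.063, adjusted p = 2.66e-20).

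TOP2A, the topoisomerase that untangles chromosomes in mitosis, had 70.4, 71 and 70 FPKM in PANC-1 at 30 rpm against 70.8, 69.4 and 70.5 FPKM in 2D, and 77.7, 79.8 and 76.8 FPKM in HEK293T at 30 rpm against 9.92, 11.2 and 10.2 FPKM in 2D. In PANC-1 the formats overlapped, with a change of 0.00 (95% interval -0.06 to 0.07), which was -0.25 with median-ratio scaling, while it rose in HEK293T, so the line difference of -2.79 ± 0.043 (adjusted p = 1.52e-22) came from HEK293T. ERCC6L, a DNA translocase of anaphase bridges, had 5.09, 5.63 and 5.15 FPKM in PANC-1 at 30 rpm against 13.2, 14.8 and 14.1 FPKM in 2D, and 20.8, 21.2 and 21.2 FPKM in HEK293T at 30 rpm against 6.26, 6.29 and 6.78 FPKM in 2D (line difference -2.82 ± 0.056, adjusted p = 6.00e-21). ANLN, the cytokinesis scaffold anillin, had a line difference of -2.67 ± 0.039 (adjusted p = 4.77e-23). The mitosis genes were not uniform in HEK293T: CCNB1, cyclin B1, changed by -1.56 in PANC-1 and -1.40 in HEK293T, and AURKA, a spindle pole kinase, by -1.79 in PANC-1 and -0.60 in HEK293T. CDC25B, a phosphatase that activates CDK1, was the member called higher (0.68 ± 0.049), and AURKB, the cytokinesis kinase, was the one not called (0.06 ± 0.045).

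Many promoters of mitotic genes carry the cell cycle homology region, TTTGAA, at which repressor complexes act outside division. Promoters of 3 of the genes above are shown because they hold it, chosen after their values were known. They are RefSeq sequences of build GRCh38.p14, 250 bases before to 50 bases after the start, 5′ to 3′ on the gene's strand, with matches on either strand in capitals. HMMR is at chr5:163460382-163460681 (+), MKI67 at chr10:128126374-128126673 (-) and TOP2A at chr17:40417847-40418146 (-).
HMMR: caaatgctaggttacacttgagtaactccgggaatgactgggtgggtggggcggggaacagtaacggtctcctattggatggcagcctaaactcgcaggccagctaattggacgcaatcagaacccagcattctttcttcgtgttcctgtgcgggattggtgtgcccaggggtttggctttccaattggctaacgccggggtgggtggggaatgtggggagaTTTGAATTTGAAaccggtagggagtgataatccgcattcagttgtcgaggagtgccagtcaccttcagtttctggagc
MKI67: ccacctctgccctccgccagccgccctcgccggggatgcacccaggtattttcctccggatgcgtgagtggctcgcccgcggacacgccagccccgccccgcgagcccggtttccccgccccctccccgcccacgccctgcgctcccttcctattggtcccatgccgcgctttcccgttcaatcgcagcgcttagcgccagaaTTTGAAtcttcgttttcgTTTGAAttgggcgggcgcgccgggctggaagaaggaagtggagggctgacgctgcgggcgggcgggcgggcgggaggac
TOP2A: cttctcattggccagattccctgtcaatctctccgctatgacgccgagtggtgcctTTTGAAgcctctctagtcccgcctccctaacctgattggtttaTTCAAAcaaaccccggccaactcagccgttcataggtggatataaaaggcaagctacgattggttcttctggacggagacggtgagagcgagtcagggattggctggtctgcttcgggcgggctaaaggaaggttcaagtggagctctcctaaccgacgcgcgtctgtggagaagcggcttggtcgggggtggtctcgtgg
HMMR holds 2 adjoining matches near the start, MKI67 2 on its own strand, and TOP2A 1 on each strand. Of the 26 tested mitosis genes with a promoter in the table, 17 hold TTTGAA, against 15.4% of all 27305 promoters and 8.92% of those of tested genes. A match is letters in a window and no evidence that the element is used. The line differences of the genes without a match ranged from -2.39 for CENPE to 0.68 for CDC25B.

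CDK inhibitors and growth arrest genes did not share a direction. Of 22 on the list 18 were tested, 5 of them through a single format in a line. For the line difference 11 were higher and 5 lower (44.7% and 36.8% of all genes). The median was 0.48, and 0.28 with mitochondrially encoded genes left out, where 9 were higher and 7 lower. CDKN1B, the CDK inhibitor p27, had 73, 71.8 and 74.9 FPKM in PANC-1 at 30 rpm against 13.3, 15.1 and 14.2 FPKM in 2D, and 10.1, 9.56 and 10.4 FPKM in HEK293T at 30 rpm against 11.5, 12.9 and 12.6 FPKM in 2D. It rose in PANC-1 and fell in HEK293T (line difference 2.56 ± 0.074, adjusted p = 2.61e-18). CCNG2, an unusual cyclin tied to arrest, and CDKN1C, the CDK inhibitor p57, also rose in PANC-1, and in HEK293T they changed by 0.09 (adjusted p = 0.134) and 0.34 (adjusted p = 0.00128). Their line differences were 2.69 ± 0.082 and 2.17 ± 0.13, given with no p because both genes were below 1 FPKM in PANC-1 in 2D and entered through 30 rpm alone. CDKN1A, the p53 target p21, changed by 0.50 in PANC-1 and 0.60 in HEK293T. PMAIP1, the pro-apoptotic protein NOXA, went the other way, with 10.6, 10.6 and 11.1 FPKM in PANC-1 at 30 rpm against 5.89, 5.76 and 6.54 FPKM in 2D, and 166, 165 and 164 FPKM in HEK293T at 30 rpm against 17.4, 21.6 and 17.7 FPKM in 2D (line difference -2.33 ± 0.10, adjusted p = 3.70e-15). MXD4, which pairs with MAX in place of MYC, rose in PANC-1 and fell in HEK293T, with 6.97, 7.14 and 7.44 FPKM in PANC-1 at 30 rpm against 1.91, 2.24 and 2.18 FPKM in 2D, and 9.59, 10.4 and 10 FPKM in HEK293T at 30 rpm against 23, 22.3 and 22.1 FPKM in 2D (line difference 2.49 ± 0.064, adjusted p = 3.97e-19).

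Most immediate early factors rose in both lines. Of 30 listed, 23 were tested, 7 of them through a single format in a line, and 21 rose in PANC-1 and 20 in HEK293T (54.1% and 49.2% of all genes). There were 17 higher and 6 lower for the line difference (44.7% and 36.8% of all genes), with a median of 1.12, against median changes of 2.17 in PANC-1 and 0.80 in HEK293T. The 7 could differ between formats by the way they were chosen. They are part of these counts and medians, which are not given without them. ZFP36, tristetraprolin, which speeds the decay of early response mRNAs, had 2155, 2156 and 2169 FPKM in PANC-1 at 30 rpm against 129, 109.8 and 105 FPKM in 2D, and 3.79, 3.25 and 4.22 FPKM in HEK293T at 30 rpm against 2.99, 2.59 and 2.38 FPKM in 2D. Its line difference was 3.85 ± 0.10 (adjusted p = 5.69e-19), and its level in HEK293T was low in both formats.

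NR4A2, an orphan nuclear receptor, had 61.9, 64.3 and 63.6 FPKM in PANC-1 at 30 rpm against 0.736, 0.523 and 0.468 FPKM in 2D, and 2.09, 1.85 and 1.74 FPKM in HEK293T at 30 rpm against 1.05, 0.861 and 0.731 FPKM in 2D, a line difference of 4.73 ± 0.093. Its relative NR4A1 had 18, 18.6 and 18.5 FPKM in PANC-1 at 30 rpm against 0.34, 0.451 and 0.428 FPKM in 2D, and 4.75, 4.85 and 4.87 FPKM in HEK293T at 30 rpm against 2.6, 2.22 and 2.23 FPKM in 2D (line difference 2.99 ± 0.059). Both receptors, and FOS, are among the 7 that entered through a single format in a line, here the 30 rpm libraries in which they are high, so no p is given for them. In FPKM both receptors rose steeply in PANC-1 and by a smaller factor in HEK293T. JUNB had 79, 76.8 and 77.6 FPKM in PANC-1 at 30 rpm against 12.9, 12 and 13.6 FPKM in 2D, and 13.3, 12.7 and 13.5 FPKM in HEK293T at 30 rpm against 17.2, 15.8 and 16.5 FPKM in 2D. Its relative JUN was the reverse in order, rising by 1.51 in PANC-1 and 2.82 in HEK293T, as was the stress factor ATF3, at 2.61 in PANC-1 and 3.72 in HEK293T. The line differences of FOS, EGR1 and JUND were 2.93, 2.40 and 1.91, so the AP-1 subunits did not share a direction.

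Clock genes were led by 3 of them. Of 20 listed, 14 were tested, 3 through a single format in a line. For the line difference 8 were higher and 5 lower (44.7% and 36.8% of all genes). The median was 0.35, which was 0.18 with mitochondrially encoded genes left out. Beside DBP and PER1, NR1D1, the repressor REV-ERB alpha, had 56.6, 55.4 and 55.6 FPKM in PANC-1 at 30 rpm against 4.85, 3.69 and 3.91 FPKM in 2D, and 3.38, 3.3 and 2.87 FPKM in HEK293T at 30 rpm against 1.8, 1.76 and 2.23 FPKM in 2D (line difference 2.96 ± 0.11, adjusted p = 3.05e-16). The activator CLOCK had a line difference of -1.22, and PER2, a relative of PER1, -0.60, both entered through a single format in a line. The hours at which the cultures were lysed are not given in the sources used here.

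Signalling feedback and inflammatory genes gave smaller lists. Of 20 MAPK feedback genes 15 were tested, 4 through a single format in a line, with 10 higher and 5 lower (44.7% and 36.8% of all genes). The list's median line difference was 0.35, and 0.17 with mitochondrially encoded genes left out, where 8 were higher and 5 lower. SPRY1, a receptor tyrosine kinase antagonist, stood at 1.35 ± 0.12 (adjusted p = 4.76e-10) and ETV4, an ETS factor downstream of ERK, at -1.45 ± 0.11 (adjusted p = 9.84e-11). Of 24 NF-kB targets 7 were tested, 2 through a single format in a line, with 6 higher and none lower (44.7% and 36.8% of all genes). Their median was 0.90, which was 0.31 with the GC and length trend removed, where 4 were higher and 2 lower. With mitochondrially encoded genes left out 5 were higher and 1 lower. NFKBIA, the inhibitor that ends NF-kB signalling, had 20.7, 20 and 22.1 FPKM in PANC-1 at 30 rpm against 9.57, 9.96 and 8.85 FPKM in 2D, and 9.76, 10.7 and 10.7 FPKM in HEK293T at 30 rpm against 18.9, 18.1 and 19.3 FPKM in 2D. It rose in PANC-1 and fell in HEK293T (line difference 1.87 ± 0.082, adjusted p = 3.85e-15). TAP1, the peptide pump of antigen presentation, which was named by size and is on no list, had 24.7, 26.7 and 25 FPKM in PANC-1 at 30 rpm against 9.04, 9.54 and 9.53 FPKM in 2D, and 4.28, 4.54 and 4.36 FPKM in HEK293T at 30 rpm against 11.2, 11.5 and 11.6 FPKM in 2D (line difference 2.56 ± 0.064, adjusted p = 2.09e-19).

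The cytosolic heat shock genes as a list did not follow HSPA1A and HSPA1B. Of 22 listed 21 were tested, with 6 higher and 11 lower (44.7% and 36.8% of all genes). The median line difference was -0.15, which was -0.36 with quantile normalization and -0.36 with mitochondrially encoded genes left out. HSP90AA1, the inducible HSP90, had 199, 204 and 197 FPKM in PANC-1 at 30 rpm against 198, 204 and 200.5 FPKM in 2D, and 302, 294 and 293 FPKM in HEK293T at 30 rpm against 122, 121 and 122 FPKM in 2D. The PANC-1 formats overlapped and the HEK293T formats did not, for a line difference of -1.28 ± 0.027 (adjusted p = 1.42e-20). HSPA4, a nucleotide exchange factor for HSP70, stood at -1.13 ± 0.035 (adjusted p = 1.01e-17), and DNAJB1, an HSP40 co-chaperone, at 0.90.

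All 26 genes of the unfolded protein response list were tested, 2 through a single format in a line, with 18 higher and 6 lower (44.7% and 36.8% of all genes). The median line difference was 0.53, and 0.34 with mitochondrially encoded genes left out. The median change was 0.47 in PANC-1 and 0.19 in HEK293T, and 7 genes rose in PANC-1 and fell in HEK293T (13.1% of all genes did). CRELD2, a secreted ER stress protein, had 15.3, 13.6 and 14.4 FPKM in PANC-1 at 30 rpm against 8.91, 10.7 and 12.7 FPKM in 2D, and 9.91, 9.73 and 10.1 FPKM in HEK293T at 30 rpm against 21.2, 19.4 and 21 FPKM in 2D (line difference 1.38 ± 0.12, adjusted p = 4.01e-10). HYOU1, an ER relative of HSP70, had 137, 141 and 139 FPKM in PANC-1 at 30 rpm against 95.5, 89.9 and 87.9 FPKM in 2D, and 46.2, 49.1 and 46.7 FPKM in HEK293T at 30 rpm against 66.8, 62.6 and 65.2 FPKM in 2D (line difference 1.05 ± 0.046, adjusted p = 3.00e-15). Both rose in PANC-1 and fell in HEK293T without overlap. HSPA5, the master ER chaperone BiP, rose in both lines, by 1.32 in PANC-1 and 0.73 in HEK293T, and XBP1, a transcription factor of the response, had a line difference of -0.88.

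The ER stress element, CCAAT and CCACG set apart by 9 bases of any kind, lies in promoters of ER chaperones and opens with the letters of the CCAAT box. It is shown in capitals for HSPA5, at chr9:125241294-125241593 (-), and for CRELD2, at chr22:49918384-49918683 (+), where it reads on the opposite strand; both were chosen after their values were known.
HSPA5: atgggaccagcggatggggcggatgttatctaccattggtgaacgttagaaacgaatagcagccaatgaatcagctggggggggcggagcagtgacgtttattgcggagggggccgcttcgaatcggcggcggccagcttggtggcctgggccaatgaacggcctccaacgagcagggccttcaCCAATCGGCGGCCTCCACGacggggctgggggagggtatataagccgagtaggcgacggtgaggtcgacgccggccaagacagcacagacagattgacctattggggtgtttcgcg
CRELD2: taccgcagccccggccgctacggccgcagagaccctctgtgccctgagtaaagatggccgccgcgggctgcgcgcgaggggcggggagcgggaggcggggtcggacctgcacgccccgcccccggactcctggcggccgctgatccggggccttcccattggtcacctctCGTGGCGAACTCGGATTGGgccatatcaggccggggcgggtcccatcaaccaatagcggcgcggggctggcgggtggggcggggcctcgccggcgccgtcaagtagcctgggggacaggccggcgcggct
The element is held by 7 of the 25 tested members with a promoter in the table, against 0.0806% of all promoters and 0.161% of those of tested genes. Their line differences ran from -0.88 for XBP1 to 1.38 for CRELD2, so holding the letters did not go with a single direction. A total of 7 motifs were searched on both strands, and the other 5 gave the following counts among tested list members with a promoter, with the share of all promoters and then of those of tested genes in brackets. The heat shock element, GAA, TTC and GAA with 2 bases of any kind between each, was in 4 of 19 heat shock genes (0.487% and 0.275%). No exact match was in HSPA1A or HSPA1B within this window. For every motif only exact matches were counted, so an element with a changed letter is missed. The sterol response element was in 1 of 18 cholesterol genes (0.0476% and 0.0459%), and the E-box CACGTG was in 3 of 14 clock genes (7.43% and 10.8%). The cyclic AMP response element TGACGTCA was in 3 of 17 immediate early genes (1.98% and 3.57%), and the antioxidant response element TGACNNNGC was in 4 of 14 NRF2 genes (13.6% and 15.5%).

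Most targets of ATF4, the factor of amino acid stress, rose in both lines, and their line differences did not share a direction. Of 32 listed 29 were tested, 5 through a single format in a line, and 22 rose in PANC-1 and 26 in HEK293T (54.1% and 49.2% of all genes). The counts include the 5, which could differ between formats by the way they were chosen. For the line difference 12 were higher and 12 lower (44.7% and 36.8% of all genes), with a median of 0.00, which was -0.41 with quantile normalization. Single members differed strongly. CHAC1, a glutathione-degrading enzyme, had 1.07, 1.26 and 1.36 FPKM in PANC-1 at 30 rpm against 1.59, 1.67 and 1.37 FPKM in 2D, and 7.1, 7.67 and 7.33 FPKM in HEK293T at 30 rpm against 0.905, 0.943 and 0.93 FPKM in 2D (line difference -2.31 ± 0.082). ASNS, asparagine synthetase, had 5.56, 4.87 and 5.35 FPKM in PANC-1 at 30 rpm against 0.36, 0.445 and 0.309 FPKM in 2D, and 21.8, 20.9 and 20.7 FPKM in HEK293T at 30 rpm against 0.891, 0.689 and 0.941 FPKM in 2D (line difference -1.40 ± 0.085). Both entered through the 30 rpm libraries in at least 1 line, so no p is given. CHAC1 fell slightly in PANC-1 and rose in HEK293T, while ASNS rose in both lines. PHGDH, the entry enzyme of serine synthesis, stood at 1.20 ± 0.057 (adjusted p = 1.31e-14), and at 0.73 with quantile normalization.

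NRF2, the factor of oxidative stress, drives antioxidant and pentose phosphate enzymes. Of 26 listed genes 20 were tested, 1 through a single format in a line. For the line difference 15 were higher and 5 lower (44.7% and 36.8% of all genes), with a median of 0.73. That median was 0.50 with quantile normalization, 0.52 with mitochondrially encoded genes left out and 0.51 with the GC and length trend removed. NQO1, a quinone reductase, had 62.2, 63.4 and 66.5 FPKM in PANC-1 at 30 rpm against 33.4, 35.3 and 35.9 FPKM in 2D, and 1.94, 1.83 and 1.54 FPKM in HEK293T at 30 rpm against 3.71, 4.1 and 4.67 FPKM in 2D. It rose in PANC-1 and fell in HEK293T (line difference 1.76 ± 0.087, adjusted p = 2.95e-14). SQSTM1, the autophagy receptor p62, had a line difference of 1.28 ± 0.04 (adjusted p = 8.71e-18), and SLC7A11, the cystine importer, went the other way at -1.38 ± 0.11 (adjusted p = 1.65e-10) while rising in both lines. HMOX1, heme oxygenase, rose by 4.36 in PANC-1 and 3.45 in HEK293T. Of 12 metallothionein and zinc genes 5 were tested, with 1 higher and 2 lower (44.7% and 36.8% of all genes). The median line difference was -0.02, which was 0.01 with a pseudocount of 0.1. The metallothionein MT1X fell by less in PANC-1 (-0.61) than in HEK293T (-2.51), a line difference of 1.90 ± 0.15 (adjusted p = 5.64e-11).

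Lipid synthesis genes separated the lines. Of 25 genes of the cholesterol list 24 were tested, with 19 higher and 2 lower (44.7% and 36.8% of all genes). The median line difference was 1.01. In PANC-1, 14 rose and 7 fell (54.1% and 32.3% of all genes), with a median change of 0.16, and in HEK293T 2 rose and 19 fell (49.2% and 38.1% of all genes), with a median of -0.72. Of the 24, 11 rose in PANC-1 and fell in HEK293T (13.1% of all genes did). DHCR7, the last enzyme before cholesterol, rose in PANC-1 and fell in HEK293T, with 61.9, 62.6 and 62.4 FPKM in PANC-1 at 30 rpm against 38.9, 37.1 and 37.2 FPKM in 2D, and 26.2, 28.2 and 27 FPKM in HEK293T at 30 rpm against 58, 57.9 and 56.5 FPKM in 2D (line difference 1.76 ± 0.045, adjusted p = 3.12e-19). SC5D, a late desaturase, was among the 2 lower, at -0.32.

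Of 20 fatty acid synthesis genes 18 were tested, with 13 higher and 4 lower (44.7% and 36.8% of all genes). The median line difference was 0.64, and 0.44 with mitochondrially encoded genes left out, where 12 were higher and 5 lower. SCD, which makes monounsaturated fatty acids, had 342, 349 and 344 FPKM in PANC-1 at 30 rpm against 209.8, 203 and 204 FPKM in 2D, and 79.6, 80.3 and 78.9 FPKM in HEK293T at 30 rpm against 213, 211 and 214 FPKM in 2D. FASN, fatty acid synthase, had 37.6, 38.4 and 37.6 FPKM in PANC-1 at 30 rpm against 37, 35.7 and 35.6 FPKM in 2D, and 24.8, 25.3 and 25.4 FPKM in HEK293T at 30 rpm against 74.2, 70.3 and 74.6 FPKM in 2D. SCD rose in PANC-1 and fell in HEK293T, while FASN rose slightly in PANC-1 and fell in HEK293T, with line differences of 2.15 ± 0.028 (adjusted p = 1.44e-23) and 1.57 ± 0.041 (adjusted p = 5.85e-19). SREBF1, the gene of the factor SREBP-1, stood at 1.80 ± 0.06 (adjusted p = 3.20e-17).

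Most glycolysis genes fell at 30 rpm in both lines, with a larger median fall in HEK293T. All 17 were tested, and 11 fell and 4 rose in PANC-1 and 14 fell and 1 rose in HEK293T, where 32.3% of all genes fell in PANC-1 and 38.1% in HEK293T. There were 14 higher and 2 lower for the line difference (44.7% and 36.8% of all genes). The median was 0.82, which was 0.53 with the GC and length trend removed. TPI1, triosephosphate isomerase, had 305, 300.1 and 308 FPKM in PANC-1 at 30 rpm against 343, 359.7 and 349.9 FPKM in 2D, and 306, 304 and 297 FPKM in HEK293T at 30 rpm against 869.7, 841 and 862 FPKM in 2D (line difference 1.30 ± 0.031, adjusted p = 1.02e-19). ENO2, a neuronal form of enolase, went the other way at -1.65 ± 0.07 (adjusted p = 2.27e-15). SLC2A1, the glucose transporter GLUT1, had 35.4, 35 and 34.4 FPKM in PANC-1 at 30 rpm against 18.1, 17.4 and 18.3 FPKM in 2D, and 7.25, 7.92 and 7.38 FPKM in HEK293T at 30 rpm against 22.7, 22.3 and 23.2 FPKM in 2D. It rose in PANC-1 and fell in HEK293T, with a line difference of 2.40 ± 0.043 (adjusted p = 1.22e-21). Of 16 genes of glucose transport and its arrestins 12 were tested, 4 through a single format in a line. For the line difference 8 were higher and 3 lower (44.7% and 36.8% of all genes). The median was 0.45, which moved to 0.25 with mitochondrially encoded genes left out and 1.34 with a pseudocount of 0.1. Of 26 hypoxia genes 19 were tested, with 9 higher and 3 lower (44.7% and 36.8% of all genes). The hypoxia median was 0.10, and -0.09 with mitochondrially encoded genes left out, so the list had no settled direction. Its member VEGFA, the angiogenic growth factor, changed by 0.72 in PANC-1 and 0.71 in HEK293T.

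Genes of oxidative phosphorylation differed by the genome that encodes them. All 40 nuclear subunit genes were tested, with 34 higher and 3 lower (44.7% and 36.8% of all genes) and a median line difference of 0.52. With mitochondrially encoded genes left out the median was 0.31, with 29 higher and 5 lower. In PANC-1 22 of the 40 fell and 9 rose, and in HEK293T 39 fell, where 32.3% and 38.1% of all genes fell. NDUFB10, a complex I subunit, had 226, 220.5 and 227 FPKM in PANC-1 at 30 rpm against 199, 184 and 186 FPKM in 2D, and 207, 191 and 205 FPKM in HEK293T at 30 rpm against 385, 373 and 374 FPKM in 2D (line difference 1.15 ± 0.055, adjusted p = 1.46e-14). The 13 mitochondrially encoded genes were the reverse, with 13 lower (36.8% of all genes) and a median of -1.61. All 13 fell in PANC-1 (32.3% of all genes). In HEK293T 8 fell and 3 rose (38.1% and 49.2% of all genes). ND1, a complex I subunit, had 347, 336 and 356 FPKM in PANC-1 at 30 rpm against 3493, 2966 and 2964 FPKM in 2D, and 1565, 1582 and 1515 FPKM in HEK293T at 30 rpm against 2573, 2372 and 2496 FPKM in 2D. COX3, a subunit of cytochrome oxidase, had 389.9, 381 and 408 FPKM in PANC-1 at 30 rpm against 4556, 4115 and 4032 FPKM in 2D, and 3314, 3430.2 and 3412 FPKM in HEK293T at 30 rpm against 7316, 7192 and 7600.1 FPKM in 2D. Both fell in both lines and further in PANC-1, with line differences of -2.50 ± 0.066 (adjusted p = 6.67e-19) and -2.30 ± 0.051 (adjusted p = 3.23e-20). Nuclear copies of mitochondrial sequence make these values uncertain.

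**Figure D3:**
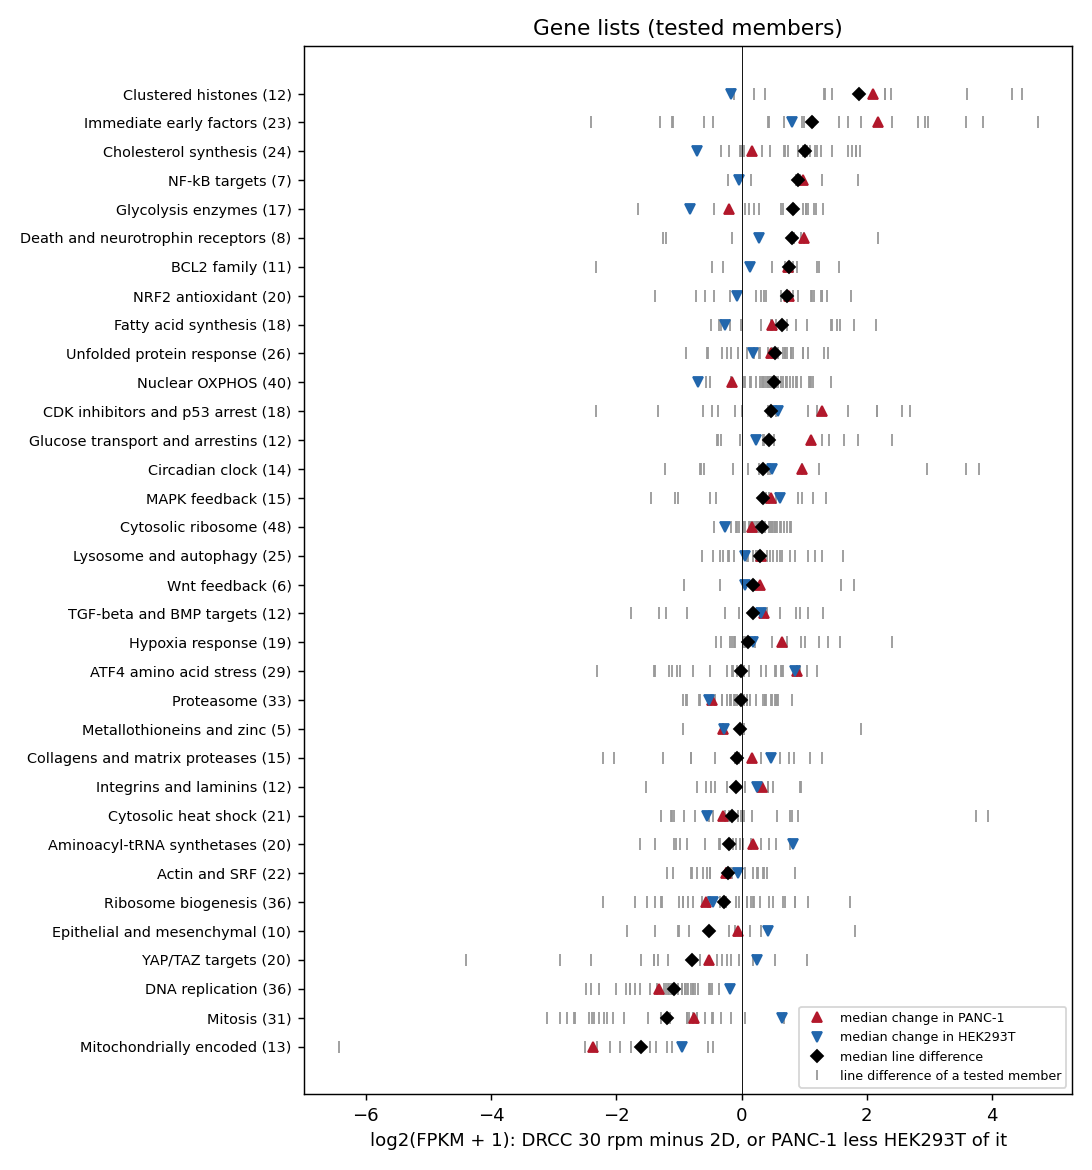
Gene lists in order of their median line difference, with the number of tested members in brackets. Grey ticks are the line differences of members, black diamonds their medians, and red and blue triangles the median changes in PANC-1 and HEK293T, all on the log2(FPKM + 1) scale. Clustered histones and immediate early factors lie at the top, mitosis, DNA replication and mitochondrially encoded genes at the bottom.

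Most targets of YAP and TAZ were lower in the response of PANC-1. Of 27 YAP and TAZ targets 20 were tested, 2 through a single format in a line, with 3 higher and 16 lower (44.7% and 36.8% of all genes) and a median line difference of -0.79, which was -0.48 with quantile normalization. Of the 20, 9 fell in PANC-1 and rose in HEK293T (9.04% of all genes did). CCN2, a matricellular protein long known as CTGF, had 18.7, 19.8 and 19 FPKM in PANC-1 at 30 rpm against 78.2, 72.6 and 73.3 FPKM in 2D, and 6.52, 6.24 and 7.37 FPKM in HEK293T at 30 rpm against 3.01, 2.61 and 3.03 FPKM in 2D (line difference -2.90 ± 0.10, adjusted p = 1.21e-16). ANKRD1, an ankyrin repeat protein, had 0.136, 0.214 and 0.229 FPKM in PANC-1 at 30 rpm against 4.82, 5.13 and 4.89 FPKM in 2D, and 4.29, 3.68 and 4.39 FPKM in HEK293T at 30 rpm against 0.259, 0.114 and 0.241 FPKM in 2D (line difference -4.40 ± 0.092). It is 1 of the members that entered through a single format in a line, 2D in PANC-1 and 30 rpm in HEK293T, so no p is given. CCN1, known as CYR61, had 284, 289 and 297 FPKM in PANC-1 at 30 rpm against 369, 358 and 356 FPKM in 2D, and 35.3, 33.4 and 34.6 FPKM in HEK293T at 30 rpm against 7.02, 7.3 and 7.72 FPKM in 2D (line difference -2.40 ± 0.066, adjusted p = 1.08e-18). All 3 fell in PANC-1 and rose in HEK293T without overlap between formats. TEAD1, the DNA-binding partner of YAP, stood at -1.61 ± 0.051 (adjusted p = 1.49e-17).

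Of 28 actin and SRF genes 22 were tested, with 7 higher and 13 lower (44.7% and 36.8% of all genes) and a median of -0.21. That median was between -0.47 and -0.40 with quantile normalization, with mitochondrially encoded genes left out or with the GC and length trend removed. VCL, the adhesion protein vinculin, stood at -1.19 ± 0.033 (adjusted p = 1.09e-18) and ACTB, beta actin, at 0.86 ± 0.051 (adjusted p = 7.04e-13), having fallen in both lines. Of 24 epithelial and mesenchymal genes 10 were tested, 4 through a single format in a line. Of these 10, 2 were higher and 6 lower (44.7% and 36.8% of all genes). Their median was -0.53, which was -0.33 with the GC and length trend removed. The repressors SNAI1 and SNAI2 went opposite ways, at 1.81 ± 0.14 and -1.83 ± 0.1. Both entered through a single format in a line, so no p is given, and SNAI2 was at a low level in PANC-1, 0.688 ± 0.105 FPKM at 30 rpm and 1.29 ± 0.15 FPKM in 2D (SD, n = 3 each). VIM, vimentin, had 2497, 2496 and 2424 FPKM in PANC-1 at 30 rpm against 2732, 2567 and 2528 FPKM in 2D, and 526, 527 and 524 FPKM in HEK293T at 30 rpm against 276, 268 and 278 FPKM in 2D (line difference -1.02 ± 0.038, adjusted p = 2.07e-16). It fell slightly in PANC-1 and rose in HEK293T. RHOV, a small GTPase, rose in PANC-1 and fell in HEK293T (2.79 ± 0.16, adjusted p = 4.40e-13), as did P3H3, a collagen prolyl hydroxylase (2.48 ± 0.097, adjusted p = 5.27e-16).

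The matrix, TGF-beta and Wnt lists had median line differences near 0 that changed sign with the setting. Their counts stand against 44.7% higher and 36.8% lower over all genes. For collagens and matrix proteases, with 15 of 31 tested, 2 through a single format in a line, 6 higher and 6 lower, the median was -0.08, and 0.07 with quantile normalization. For integrins and laminins, with 12 of 22 tested, 2 through a single format, 5 higher and 6 lower, it was -0.09, and 0.10 with quantile normalization. For TGF-beta and BMP targets, with 12 of 21 tested, 2 through a single format, 6 higher and 5 lower, it was 0.19, and -0.10 with quantile normalization. For Wnt feedback genes, with 6 of 22 tested, 1 through a single format, 4 higher and 2 lower, it was 0.19, and -0.12 with the GC and length trend removed. Single members still differed. ADAMTS1, a secreted metalloprotease, had 1.57, 1.39 and 1.25 FPKM in PANC-1 at 30 rpm against 1.44, 1.39 and 1.4 FPKM in 2D, and 318, 318 and 318 FPKM in HEK293T at 30 rpm against 68.9, 68.8 and 67.2 FPKM in 2D (line difference -2.21 ± 0.065, adjusted p = 3.64e-18). COL18A1, the basement membrane collagen XVIII, stood at 1.29 ± 0.04 (adjusted p = 9.46e-18), and ID2, a BMP target, at -1.76 ± 0.09 (adjusted p = 4.86e-14). ITGA2, a collagen receptor subunit that entered in HEK293T through 30 rpm alone, stood at -1.53 ± 0.064.

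Clustered histone genes had the highest median of any list, 1.87, but only 12 of 27 were tested, 3 through a single format in a line. There were 10 higher and none lower (44.7% and 36.8% of all genes), with median changes of 2.09 in PANC-1 and -0.17 in HEK293T. H2BC21, an H2B gene whose mRNA can be polyadenylated, had 51.6, 51.9 and 51.7 FPKM in PANC-1 at 30 rpm against 0.512, 0.948 and 0.862 FPKM in 2D, and 1.02, 1.43 and 1.24 FPKM in HEK293T at 30 rpm against 0.544, 0.771 and 0.661 FPKM in 2D (line difference 4.48 ± 0.11). It is 1 of the 3, having entered through the 30 rpm libraries in both lines, so no p is given. H2AC6, an H2A gene, had 87.1, 90.1 and 82.8 FPKM in PANC-1 at 30 rpm against 6.58, 8.27 and 8 FPKM in 2D, and 1.11, 1.92 and 1.48 FPKM in HEK293T at 30 rpm against 2.13, 1.83 and 1.86 FPKM in 2D (line difference 3.59 ± 0.23, adjusted p = 3.58e-12). Both rose steeply in PANC-1 and were low in both formats of HEK293T. The sources used here do not say whether polyadenylated RNA was selected, and near-identical copies make histone values uncertain.

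Of 48 cytosolic ribosomal protein genes, all tested, 39 were higher and 2 lower (44.7% and 36.8% of all genes). The median line difference was 0.33, and none differed by 2-fold. That median was 0.14 with quantile normalization, 0.11 with mitochondrially encoded genes left out and 0.17 with the GC and length trend removed. RPS15 stood at 0.78 ± 0.049 (adjusted p = 1.88e-12), and at 0.21 with the GC and length trend removed. RPLP2 stood at 0.79 ± 0.078 (adjusted p = 4.48e-09), and at 0.09 (adjusted p = 0.187) with the GC and length trend removed. Of 36 ribosome biogenesis genes, all tested, 13 were higher and 20 lower (44.7% and 36.8% of all genes). Their median was -0.27, and -0.47 with mitochondrially encoded genes left out. NOP58, a core protein of snoRNA particles, had 53.9, 57.7 and 56.6 FPKM in PANC-1 at 30 rpm against 85.3, 83.3 and 85.1 FPKM in 2D, and 112, 110 and 114 FPKM in HEK293T at 30 rpm against 33.6, 37.5 and 36.2 FPKM in 2D (line difference -2.21 ± 0.052, adjusted p = 1.02e-19). MYC, the growth factor-induced transcription factor, rose by 2.53 in PANC-1 and 0.79 in HEK293T, opposite in order to NOP58. Of 20 aminoacyl-tRNA synthetases, all tested, 5 were higher and 12 lower (44.7% and 36.8% of all genes). Their median was -0.19, and -0.49 with quantile normalization. The list was led by FARSB at -1.62 ± 0.041 (adjusted p = 2.29e-19).

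Genes of protein breakdown and cell death gave mixed lists. For 33 proteasome genes, all tested, 14 were higher and 15 lower (44.7% and 36.8% of all genes). Their median was -0.02, which was 0.06 with the GC and length trend removed. Within the lines, 28 fell in PANC-1 and 26 in HEK293T (32.3% and 38.1% of all genes). Of 29 lysosome and autophagy genes 25 were tested, 1 through a single format in a line, with 16 higher and 6 lower (44.7% and 36.8% of all genes) and a median of 0.29. With mitochondrially encoded genes left out that median was 0.09, with 12 higher and 8 lower. GABARAPL1, an autophagosome protein, had 44.3, 41.8 and 42.9 FPKM in PANC-1 at 30 rpm against 3.23, 4.11 and 3.93 FPKM in 2D, and 70.9, 69.4 and 70.3 FPKM in HEK293T at 30 rpm against 22.6, 22.3 and 22.7 FPKM in 2D. It rose in both lines and more in PANC-1 (line difference 1.62 ± 0.069, adjusted p = 2.12e-15). Of 16 BCL2 family genes 11 were tested, 2 through a single format in a line, with 8 higher and 3 lower (44.7% and 36.8% of all genes). Their median was 0.75, and 0.32 with the GC and length trend removed, where 7 were higher and 4 lower. Among the 11 was MCL1, a survival factor, at 1.55 ± 0.051 (adjusted p = 2.85e-17). Of 18 death and neurotrophin receptors 8 were tested, with 5 higher and 2 lower (44.7% and 36.8% of all genes). Their median was 0.81, and 0.45 with the GC and length trend removed. NGFR, the neurotrophin receptor p75, had 141, 138 and 141 FPKM in PANC-1 at 30 rpm against 1.14, 1.49 and 1.3 FPKM in 2D, and 26.2, 25.7 and 26.6 FPKM in HEK293T at 30 rpm against 0.8, 1.1 and 1.11 FPKM in 2D. It was induced in both lines from near 1 FPKM, further in PANC-1 (line difference 2.17 ± 0.083, adjusted p = 3.20e-16).

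A smaller part of the response was of like size in the lines. The 95% interval of the line difference lay within 0.5 of 0 for 3966 genes (37.8%). Counting only protein-coding genes among them with at least 5 FPKM in the higher format of each line, 100 rose and 39 fell at least 2-fold in both lines. DDIT4, an inhibitor of the growth kinase mTORC1, had 74.5, 69.5 and 77.5 FPKM in PANC-1 at 30 rpm against 16.8, 18.9 and 17.9 FPKM in 2D, and 366, 349 and 356 FPKM in HEK293T at 30 rpm against 90.2, 86.5 and 90.6 FPKM in 2D. The line difference was 0.00 (95% interval -0.11 to 0.10). RHOB, a small GTPase induced by stress, had 47.7, 47.8 and 49.8 FPKM in PANC-1 at 30 rpm against 7.65, 7.89 and 7.24 FPKM in 2D, and 402, 402 and 409 FPKM in HEK293T at 30 rpm against 72.1, 70.6 and 72.4 FPKM in 2D (interval -0.05 to 0.14). Both rose in each line from different starting levels, and with quantile normalization their line differences were -0.57 and -0.60. TXNIP, an arrestin that restrains glucose uptake, rose by 3.62 in PANC-1 and 3.64 in HEK293T, but from below 1 FPKM in PANC-1. Its likeness holds on this scale alone: with a pseudocount of 0.1 the line difference was 0.93. It entered in PANC-1 through 30 rpm alone, so no p is given. TAF1D, a subunit of an RNA polymerase I factor, rose by 2.37 in PANC-1 and 2.67 in HEK293T.

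Shared falls were led by POP1, a protein of RNase P, by PPP1R10, a regulator of phosphatase PP1, by PPIF, the mitochondrial cyclophilin D, and by TUBA1B, an alpha tubulin. PPP1R10 had 2.82, 2.85 and 2.84 FPKM in PANC-1 at 30 rpm against 18.3, 18.3 and 19.3 FPKM in 2D, and 4.43, 4.2 and 5 FPKM in HEK293T at 30 rpm against 22.4, 21.8 and 23.1 FPKM in 2D. TUBA1B had 433, 453 and 431 FPKM in PANC-1 at 30 rpm against 1432, 1545 and 1567 FPKM in 2D, and 561, 591 and 583 FPKM in HEK293T at 30 rpm against 1614, 1532 and 1618 FPKM in 2D. Each fell in both lines without overlap, and the 95% intervals of the line difference were -0.42 to -0.13 for PPP1R10, -0.42 to -0.23 for TUBA1B, -0.11 to 0.27 for POP1 and 0.00 to 0.23 for PPIF. The line difference of TUBA1B was -0.86 with quantile normalization and -0.66 with the GC and length trend removed. POP1 was below 1 FPKM in PANC-1 at 30 rpm and entered there through 2D alone, so no p is given. Its line difference was -0.34 with a pseudocount of 0.1.

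Transcript GC content moved with the line difference. For the 10311 members with a value (98.2%), Spearman's correlation across genes was 0.535 between the line difference and the GC content of the longest annotated transcript, 0.126 for the response of PANC-1 and -0.392 for that of HEK293T; genes share libraries, and no p is given. In 4 equal groups of rising GC content the median line difference was -0.40, -0.12, 0.23 and 0.55, and the share called higher was 16.5%, 31.7%, 55.9% and 75.3%. When the trend with GC content and length was removed from each library, 3237 of 4624 higher calls (70.0%) and 2859 of 3829 lower calls (74.7%) were called in the same direction, and the 2-fold calls became 495 higher and 606 lower. Among lists the medians after removal were -1.19 for DNA replication, -1.21 for mitosis, 0.92 for cholesterol synthesis, 1.35 for clustered histones, 0.59 for immediate early factors and -0.27 for ATF4 targets. The medians of immediate early factors, cholesterol synthesis and clustered histones were thus smaller after removal, against 1.12, 1.01 and 1.87 before. Those of DNA replication, mitosis and ATF4 targets were more negative, against -1.08, -1.19 and 0.00 before. Among single genes named above, the line difference after removal was 0.82 for SQSTM1, -0.71 for SLC7A11, 0.82 for TPI1, 0.53 for NDUFB10, 0.48 for ACTB and 0.70 for COL18A1. What GC content stands for here was not tested.

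**Figure D4:**
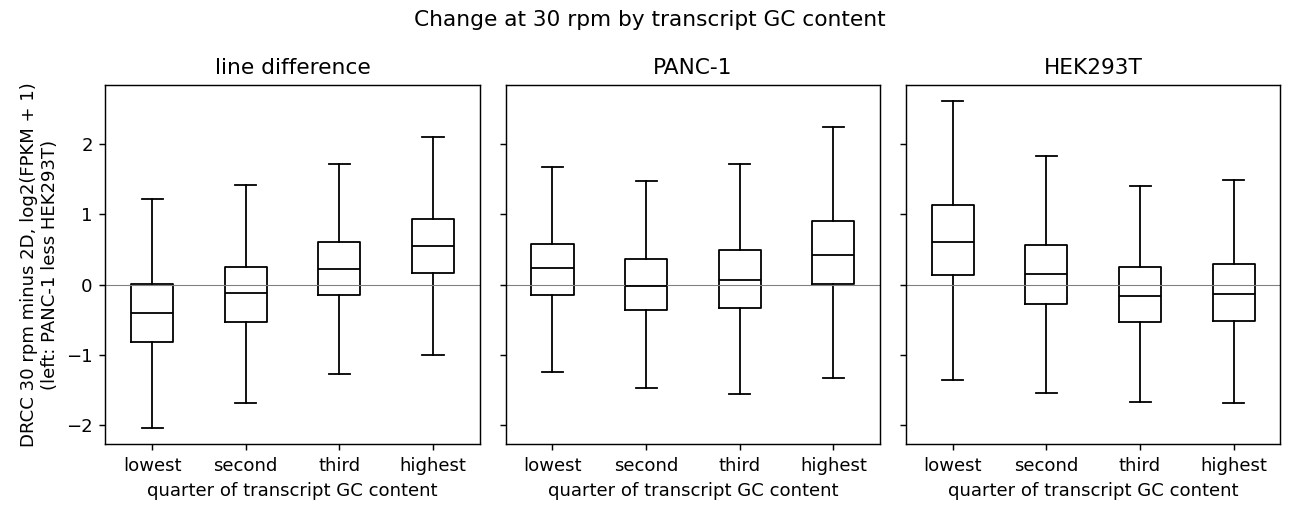
Line difference and responses of PANC-1 and HEK293T on the log2(FPKM + 1) scale for members in 4 equal groups of rising transcript GC content. Boxes span the middle of each group with the median as a line, whiskers reach to 1.5 box lengths and single genes beyond them are not drawn. The median line difference climbs from group to group, while the HEK293T medians are highest in the group of lowest GC content.

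The other formats place the line difference at 30 rpm. Against the line difference at 1 rpm, with which it shares the 2D libraries so that these cancel, 6930 genes (66.0%) differed, and by at least 2-fold 212 (2.02%) were higher at 30 rpm and 44 (0.419%) lower. The split of all calls was 4031 higher and 2899 lower, and it turned to 3372 and 3706 with quantile normalization, to 3056 and 3916 with mitochondrially encoded genes left out and to 3265 and 3533 with the GC and length trend removed. Against AggreWell, 8211 genes (78.2%) differed, with 837 (7.97%) higher and 410 (3.91%) lower by at least 2-fold, and the split of 4553 higher (43.4%) and 3658 lower (34.8%) turned to 3487 and 4705 with mitochondrially encoded genes left out, to 3954 and 4290 with quantile normalization and to 3908 and 4020 with the GC and length trend removed.

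HSPA1B differed between the speeds. It averaged 24.7 ± 1.03 FPKM at 1 rpm in PANC-1 and 111 ± 3.17 FPKM at 30 rpm, against 197 ± 4.67 FPKM at 1 rpm in HEK293T and 109 ± 3.01 FPKM at 30 rpm (SD, n = 3 each), and its line difference was greater at 30 rpm than at 1 rpm by 2.97 ± 0.053 (adjusted p = 1.40e-20). In PANC-1 its level at 1 rpm was near that of 2D. PER1 was the reverse, at 144 ± 4.66 FPKM at 1 rpm and 85.4 ± 0.373 FPKM at 30 rpm in PANC-1, and its line difference was smaller at 30 rpm, with a difference of -1.05 ± 0.067 (adjusted p = 1.47e-11). DBP likewise averaged 32.4 ± 1.61 FPKM at 1 rpm and 21.1 ± 0.888 FPKM at 30 rpm in PANC-1, with a difference of -0.34 ± 0.08 (adjusted p = 8.17e-04). In AggreWell PER1 and DBP averaged 3.69 ± 0.0814 and 2.68 ± 0.233 FPKM in PANC-1, below both DRCC speeds, and their line differences at 30 rpm exceeded those in AggreWell by 3.91 ± 0.067 and 3.10 ± 0.08 (adjusted p = 5.89e-22 and 5.60e-19).

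MKI67 averaged 69.8 ± 2.03 FPKM in AggreWell, 26 ± 0.298 FPKM at 1 rpm and 17.6 ± 0.456 FPKM at 30 rpm in PANC-1, against 15.4 ± 0.237 FPKM in AggreWell, 17.2 ± 0.585 FPKM at 1 rpm and 17.8 ± 0.183 FPKM at 30 rpm in HEK293T. In HEK293T the means of all 3 other formats lay above 2D, while PANC-1 stood highest in AggreWell and lowest at 30 rpm, and the line difference at 30 rpm differed from that at 1 rpm by -0.59 ± 0.063 (adjusted p = 5.31e-08) and from that in AggreWell by -2.12 ± 0.063 (adjusted p = 6.80e-18). The mitosis list had 20 genes lower at 30 rpm than at 1 rpm and 7 higher (27.6% and 38.4% of all genes), with a median of -0.24. The cholesterol list had 15 lower and 4 higher, with a median of -0.24. DNA replication genes did not share this, with 7 lower and 14 higher and a median of 0.12. For YAP and TAZ targets 7 were lower and 9 higher, with a median of 0.13. The median over all genes was 0.06. CCN2 averaged 20.6 ± 0.268 FPKM in AggreWell, 7.96 ± 0.324 FPKM at 1 rpm and 19.2 ± 0.531 FPKM at 30 rpm in PANC-1, all below 2D.

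**Figure D5:**
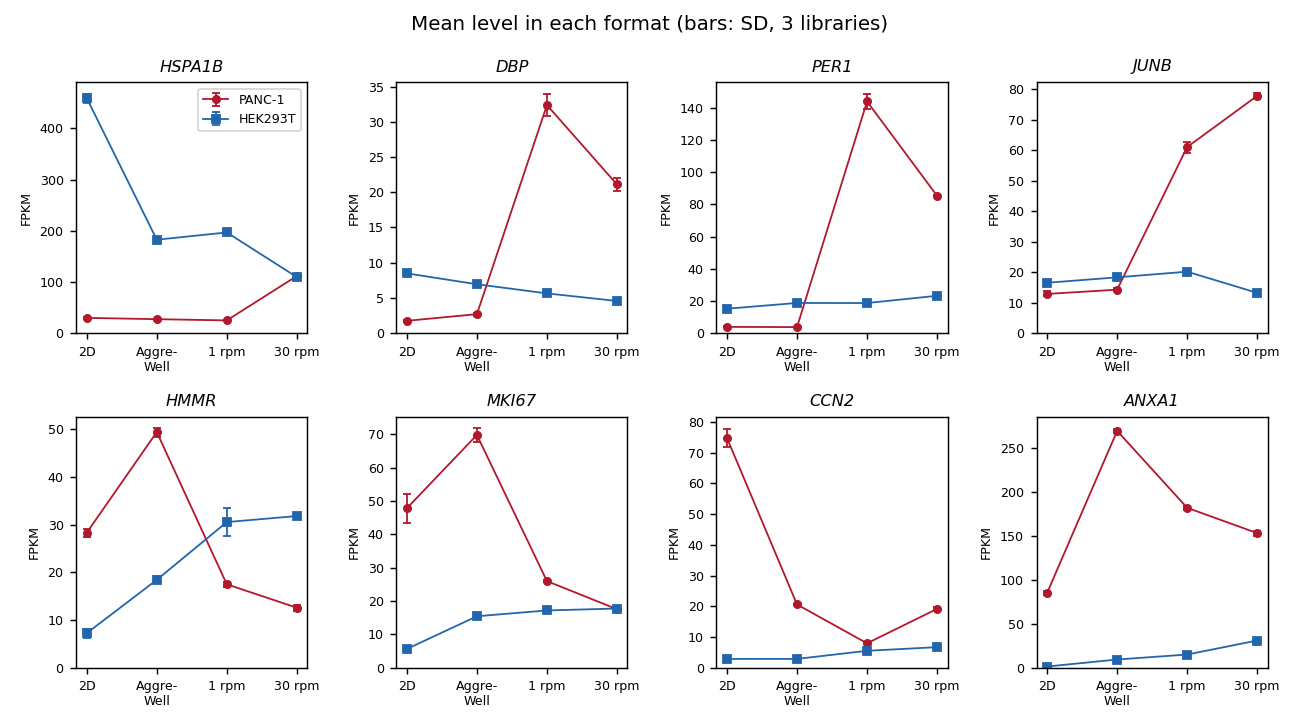
Mean FPKM in 2D, AggreWell, DRCC at 1 rpm and DRCC at 30 rpm for 8 genes with large line differences, in PANC-1 (circles) and HEK293T (squares), with SD over 3 libraries as bars. Formats are separate cultures and the lines between points only guide the eye. In PANC-1, HSPA1B is highest at 30 rpm, DBP and PER1 are highest at 1 rpm, and HMMR and MKI67 are lowest at 30 rpm.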

How the data were processed

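RNA of 24 libraries (3 in each of 8 groups) was extracted with TRIzol and made into libraries with the VAHTS Universal V10 kit, per the labels' protocols. The submitters' processing notes name fastp, HISAT2, HTSeq and R 3.2.0 without their roles, and the mouse build mm10, although the symbols in the table are human, so the build is uncertain and no coordinates were taken from it. The authors deposited FPKM per gene and library, which are relative to the library total and the gene length, so that a change in abundant genes moves all others. The sources used here do not give strandedness. Whole fragments were recovered from the FPKM steps (within 0.01 plus 1e-07 of the count, for all 26450 genes), which gave depths of 32555333 to 39556154 fragments in the 12 libraries of the contrast.

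On log2(FPKM + 1), which understates the change of low genes, limma 3.58.1 (R 4.3.3, trended variance) was fitted over the 24 libraries and p-values were adjusted over the 10498 genes tested. The script was tested on simulated data. Same-numbered libraries did not deviate together, so no block was used. Alternatives were a pseudocount of 0.1, no filter and a mean of at least 5 FPKM, median-ratio and quantile scaling, mitochondrially encoded genes left out, robust shrinkage, voom on recovered fragments, a replicate block, a fit over 12 libraries and each library left out. Removal of the trend with GC content and length (loess, span 0.5) and a mean of at least 1 FPKM in both formats of each line were chosen after seeing the data, as were the promoters, the 7 motifs and the genes drawn by sample.

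The members and lists were chosen with earlier results of these data known. Genes were named if called, of at least 5 FPKM in each line and without overlap of library differences: the 8 largest, the 8 smallest and, among genes called in opposite directions, 6 each way. Like changes were those of at least 1 (log2) in protein-coding genes of at least 5 FPKM in each line, with the 95% interval within 0.5 of 0. The 4 largest rises and falls of these were named, and of each list the 4 called members of largest absolute line difference. LIG1, CCNB1, AURKA, CDC25B, AURKB, CENPE, CDKN1A, JUN, ATF3, FOS, EGR1, JUND, CLOCK, PER2, DNAJB1, HSPA5, XBP1, HMOX1, SC5D and VEGFA were named outside this rule after their values were seen. GC content is that of the longest GENCODE transcript of a gene, and promoters are from RefSeq (GRCh38.p14). A few genes meeting these criteria are not reported here.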

Additional observations from a re-analysis of the deposited data

Results flagged for a closer look

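The difference between the lines was itself tested for every gene, and 8555 genes passed, so the genes below are a choice by size and not the whole set. Higher in the response of PANC-1 were HSPA1B (3.94), DBP (3.79), HSPA1A (3.74), PER1 (3.58), CCDC85B (3.22), IER5L (2.88), JUNB (2.82), RHOV (2.79), TAP1 (2.56), MXD4 (2.49) and P3H3 (2.48), as line differences on the log2(FPKM + 1) scale. Lower in the response of PANC-1 were ND6 (-6.43), HMMR (-3.11), ATAD2 (-2.99), CCN2 (-2.90), MKI67 (-2.89), ANXA1 (-2.89), ERCC6L (-2.82), TOP2A (-2.79), EXO1 (-2.78), PRIM1 (-2.28) and XRCC2 (-2.20). Small differences that still passed the test were found among genes of like response, namely TAF1D (-0.30), PPP1R10 (-0.27) and TUBA1B (-0.33).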

How the results depend on the processing

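Across the 12 alternatives, the number of genes called for the line difference ran from 5836 to 12191, against 8555. Genes lower numbered 5978 without a filter and 2524 with a minimum mean of 5 FPKM, genes risen in PANC-1 3511 with that minimum, genes risen in HEK293T 7896 without a filter and 3079 with that minimum, and genes lower against AggreWell 5492 without a filter; these settings test more or fewer genes. The 2-fold calls were 1365 higher and 1106 lower with a pseudocount of 0.1, 1441 and 1148 with voom, and 569 and 1141 with mitochondrially encoded genes left out. With each library left out in turn, 8410 to 8587 genes were called, 4603 to 4662 higher and 3766 to 3925 lower. With the replicate block, 8618 were called, 4708 higher and 3910 lower; same-numbered libraries correlated near 0 with mixed signs, so the numbers do not pair the samples. With the GC and length trend removed, the split was 4288 risen and 4618 fallen in PANC-1.

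Some named genes changed sign, and the cause was not tested. TOP2A in PANC-1 was -0.25 with median-ratio scaling, -0.027 with mitochondrially encoded genes left out, -0.21 with the GC trend removed and -0.0033 to 0.010 with a library left out. TXNIP was 0.93 with a pseudocount of 0.1, 0.086 with median-ratio scaling, 1.11 with voom, 0.14 with the GC trend removed and -0.081 to 0.074 with a library left out. RHOB was -0.60 with quantile normalization, -0.17 with mitochondrially encoded genes left out and -0.41 with the GC trend removed, and TAF1D, otherwise at -0.30, was 0.17 with the GC trend removed. DDIT4 was 0.042 with a pseudocount of 0.1, 0.047 with voom and -0.041 to 0.041 with a library left out. POP1 was -0.34 with a pseudocount of 0.1, -0.052 with median-ratio scaling, -0.14 with quantile normalization, -0.073 with mitochondrially encoded genes left out and -0.43 with voom. PPIF was -0.11 with quantile normalization, -0.089 with mitochondrially encoded genes left out and -0.18 with the GC trend removed, and RPS16, a ribosomal protein gene otherwise at 0.72, was -0.080 with quantile normalization. Depth limits genes near 1 FPKM most, where the pseudocount moves the values.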
